A study of Mus musculus with 6 samples.

Results

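The Toll-like receptors of the mouse were followed in spleen RNA, through every probe set whose platform annotation gave exactly 1 gene symbol and that symbol was Tlr1, Tlr2, Tlr3, Tlr4, Tlr5, Tlr6, Tlr7, Tlr8, Tlr9 or Tlr13. The rule found 16 probe sets for all 10 receptors, out of 45037 probe sets and 18193 genes measured. The samples came from spleens of adult female F1 mice. Of these samples, 3 were of (AKR/J x FVB/NJ)F1, called AKR F1 here, and 3 of (DBA/2J x FVB/NJ)F1, called DBA F1. The sample titles number the replicates and name no separate animals. There was no treatment beyond anaesthesia before tissue collection, and the series compares the genotypes at baseline. All 6 samples therefore carry an FVB/NJ chromosome set, and the groups differ by label in the other set, from AKR/J or from DBA/2J. Whole spleen was read in each array, so more cells of a type and more RNA per cell cannot be told apart. Whether the parental sequences differ under the probes was not examined.

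Toll-like receptors are membrane proteins that recognise molecules of microbes through an ectodomain of leucine-rich repeats and signal through an intracellular TIR domain. Those of the cell surface read lipopeptides, lipopolysaccharide and flagellin, and those of endosomes read nucleic acids. Most signal through the adaptor Myd88 to NF-kB, and Tlr3 signals through Ticam1 (TRIF). In the spleen they are known from B cells, dendritic cells, macrophages, monocytes and neutrophils.

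Values are the deposited log2 signals of Affymetrix probe sets, with array medians between 5.04 and 5.10. Differences are those of AKR F1 minus DBA F1 on that log2 scale, with the standard error and the Benjamini-Hochberg adjusted p of limma, and the threshold was an adjusted p of 0.05. Signals of different probe sets depend on their own probes, so the order of signals between receptors is not an order of transcript amounts. Over all probe sets 10.4% passed, 5.14% higher in AKR F1 and 5.26% higher in DBA F1. With 1 probe set a gene, 17.2% of genes passed, 8.91% and 8.31% in these directions. Erythroid marker genes had a mean level of 8.92 to 9.77 in DBA F1 and 7.15 to 7.73 in AKR F1. Pancreatic acinar marker genes averaged 6.46 in replicate 3 of DBA F1 and 13.43 to 13.94 in the other arrays.

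Tlr1 showed the largest difference of the 10 receptors, 2.41-fold higher in AKR F1. Tlr6, encoded beside it, was 1.30-fold higher, and their shared partner Tlr2 did not pass. Tlr4 passed at 1 of its 4 probe sets. Neither Tlr5 nor any of the 5 endosomal receptors (Tlr3, Tlr7, Tlr8, Tlr9 and Tlr13) passed.

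Tlr1, which pairs with Tlr2 to bind triacylated lipopeptides, has 1 probe set (1449049_at). Its signal was 9.11, 8.85 and 8.86 in replicates 1, 2 and 3 of AKR F1 and 7.93, 7.61 and 7.47 in those of DBA F1. Every array of AKR F1 lay above every array of DBA F1, and the gap between the crosses was wider than the range within either. The means were 8.94 ± 0.15 and 7.67 ± 0.23 (SD, n = 3 each), and the difference was 1.27 ± 0.13 (SE), with a 95% interval of 0.97 to 1.57 and adjusted p = 0.00289. Tlr1 passed whichever array was left out, with differences of 1.17 to 1.40 and adjusted p-values up to 0.0184. No other probe set of Tlr1 with 1 symbol was available to set beside it.

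Tlr6 pairs with Tlr2 to bind diacylated lipopeptides, and it too has 1 probe set (1421352_at). Its signal was 7.27, 7.17 and 7.34 in AKR F1 and 6.99, 6.76 and 6.90 in DBA F1. The arrays of the crosses did not overlap, but the gap was narrow, from 6.99 to 7.17. The difference was 0.38 ± 0.09 (SE; adjusted p = 0.0407). That call was lost after quantile normalization (0.29, adjusted p = 0.110). It was also lost without replicates 1, 2 or 3 of AKR F1 (adjusted p = 0.109, 0.0701 and 0.109) and without replicates 2 or 3 of DBA F1 (adjusted p = 0.117 and 0.0955).

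Tlr2, the common partner in both pairs, had signals of 7.64, 7.36 and 7.43 in AKR F1 and 7.41, 6.88 and 6.89 in DBA F1 (1419132_at). Replicate 1 of DBA F1 lay within the range of AKR F1, while the other 2 arrays lay below it. The difference of 0.42 ± 0.15 (SE) did not pass (adjusted p = 0.111), and its 95% interval ran from 0.07 to 0.77. With array weights Tlr2 passed (adjusted p = 0.0494). Without replicate 1 of DBA F1 the difference was 0.60 with adjusted p = 0.0171.

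**Figure D1:**
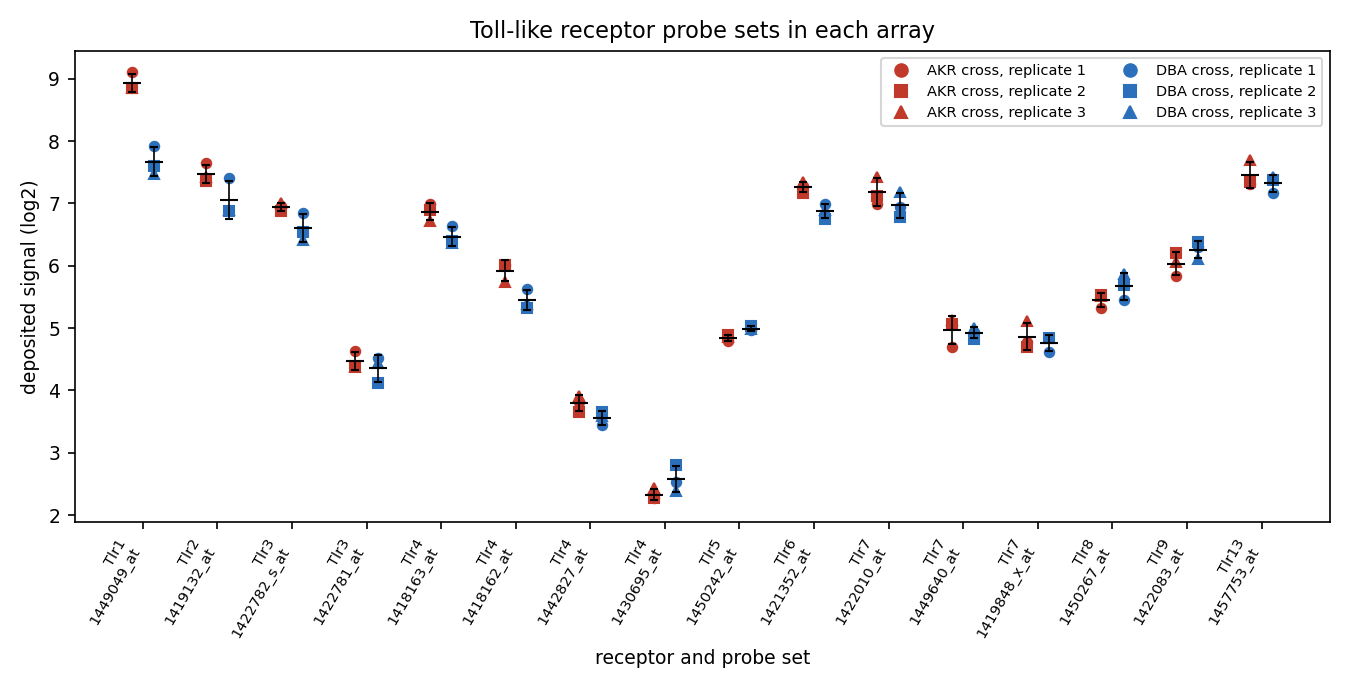
Deposited log2 signal (y axis) of each of the 16 probe sets (x axis) in the 6 arrays; red marks are AKR F1, blue marks DBA F1, marker shapes the replicates, and black bars the mean ± SD of 3 arrays. Tlr1 shows the widest gap, with AKR F1 at 8.85 to 9.11 and DBA F1 at 7.47 to 7.93, and most other probe sets overlap or nearly touch.

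Promoter sequences are shown for Tlr1 and Tlr6, which differed, and for their partner Tlr2, so that the letters next to the 3 start sites can be compared. RefSeq promoter entries of GRCm38.p6 were matched by symbol for 8 of the 10 receptors, with 10 start sites. Tlr4 and Tlr7 were not matched. Each sequence is the 250 bases before a start, 5′ to 3′ on the strand of the gene, from the reference strain and from none of the parents. Tlr1 lies on the minus strand at chr5:64933559-64933808, Tlr6 on the minus strand at chr5:64959167-64959416 and Tlr2 on the minus strand at chr3:83841609-83841858. Capitals mark matches on either strand to GAGGAAGT (a form of the site of the ETS factor PU.1), to a form of the interferon-stimulated response element (GAAA, any 2 bases, GAAA) or to the kappa B motif.
Tlr1: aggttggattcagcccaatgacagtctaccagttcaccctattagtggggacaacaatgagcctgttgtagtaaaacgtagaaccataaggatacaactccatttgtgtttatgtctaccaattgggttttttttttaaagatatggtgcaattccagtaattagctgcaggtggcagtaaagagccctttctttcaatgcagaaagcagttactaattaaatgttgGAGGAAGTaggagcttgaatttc
Tlr6: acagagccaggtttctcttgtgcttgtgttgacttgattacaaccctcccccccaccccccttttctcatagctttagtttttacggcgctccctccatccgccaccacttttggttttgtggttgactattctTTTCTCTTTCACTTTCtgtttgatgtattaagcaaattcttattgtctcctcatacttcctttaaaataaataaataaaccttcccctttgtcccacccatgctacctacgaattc
Tlr2: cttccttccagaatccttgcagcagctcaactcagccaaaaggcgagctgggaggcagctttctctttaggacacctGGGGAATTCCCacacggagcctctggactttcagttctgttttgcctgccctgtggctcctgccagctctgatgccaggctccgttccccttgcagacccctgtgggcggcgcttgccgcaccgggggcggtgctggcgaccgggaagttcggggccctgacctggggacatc

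The 3 windows held different motifs. That of Tlr1 had GAGGAAGT from 23 to 16 bases before the start, and 2.44% of all 32851 promoter windows of this length hold that motif. That of Tlr6 had 2 overlapping matches to the interferon-stimulated response element on the opposite strand between 116 and 101 bases before the start, a motif in 2.98% of windows. That of Tlr2 had 3 overlapping matches to the kappa B motif between 173 and 163 bases before the start, 2 of them the same letters read on both strands, and 7.25% of windows hold this motif. The second RefSeq start of Tlr1 and the second of Tlr6 had none of these letters in their windows. Of all 10 receptor starts, 1 held GAGGAAGT, 1 the interferon-stimulated response element and 2 the kappa B motif, those of Tlr2 and Tlr3. A match describes letters and shows no binding.

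Tlr4 binds lipopolysaccharide together with Ly96 (MD-2), and its 4 probe sets fell into a brighter and a dimmer pair. At the brightest (1418163_at) the signal was 6.99, 6.90 and 6.72 in AKR F1 and 6.64, 6.39 and 6.37 in DBA F1. The arrays did not overlap, and the difference was 0.40 ± 0.11 (SE; adjusted p = 0.0520). At 1418162_at the signal was 6.02, 6.01 and 5.74 against 5.63, 5.33 and 5.38, again without overlap, and the difference of 0.47 ± 0.12 (SE) passed (adjusted p = 0.0418). Both probe sets stood near the threshold, 1 on either side of it. With 1 probe set a gene, and adjustment over genes, the brightest passed as well (adjusted p = 0.0395). That call was lost after quantile normalization and when the 4 probe sets of Tlr4 were averaged, and with 1 array left out it held only without replicate 1 of DBA F1.

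The dim pair of Tlr4 gave no call. At 1442827_at the signal was 3.82, 3.66 and 3.90 in AKR F1 and 3.44, 3.65 and 3.58 in DBA F1 (0.24 ± 0.10, SE; adjusted p = 0.146). At 1430695_at it was 2.28, 2.27 and 2.43 against 2.54, 2.80 and 2.39 (-0.25 ± 0.12, SE; adjusted p = 0.191), so this probe set had the opposite sign. Both had means below 4.33, the 40th percentile of mean signals. The call at 1418162_at was lost after quantile normalization (adjusted p = 0.0604), without replicates 1, 2 or 3 of AKR F1 (adjusted p = 0.122, 0.111 and 0.0546) and without replicates 2 or 3 of DBA F1 (adjusted p = 0.122 and 0.109).

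Tlr5, the receptor for flagellin, varied little within each cross. Its signal was 4.80, 4.89 and 4.85 in AKR F1 and 4.97, 5.03 and 4.98 in DBA F1 (1450242_at). It was the only probe set of the 16 at which all arrays of DBA F1 lay above those of AKR F1. The difference was small, -0.15 ± 0.08 (SE), and did not pass (adjusted p = 0.230), with a 95% interval of -0.32 to 0.03.

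Among the endosomal receptors, Tlr3 senses double-stranded RNA. At 1422782_s_at, whose suffix marks probes shared by more than 1 transcript, its signal was 6.96, 6.88 and 7.004 in AKR F1 and 6.85, 6.55 and 6.41 in DBA F1. The arrays did not overlap, although replicate 1 of DBA F1 lay just below the lowest array of AKR F1, and the difference of 0.35 ± 0.12 (SE) did not pass (adjusted p = 0.0919). Without that array it was 0.47 with adjusted p = 0.0230. At the dimmer 1422781_at the signal was 4.64, 4.40 and 4.37 against 4.52, 4.11 and 4.43, and the crosses overlapped (0.11 ± 0.13, SE; adjusted p = 0.571).

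Tlr7 and Tlr8 are neighbouring genes of the X chromosome that sense single-stranded RNA. At the brightest probe set of Tlr7 (1422010_at) the signal was 6.99, 7.12 and 7.43 in AKR F1 and 6.94, 6.79 and 7.19 in DBA F1, with overlap (0.21 ± 0.14, SE; adjusted p = 0.350). The other 2 probe sets of Tlr7, 1449640_at and 1419848_x_at, had signals of 4.62 to 5.12 and differences of 0.04 ± 0.12 and 0.10 ± 0.12 (SE; adjusted p = 0.844 and 0.622). Tlr8 had signals of 5.32, 5.53 and 5.51 in AKR F1 and 5.45, 5.69 and 5.87 in DBA F1 (1450267_at). The crosses overlapped at Tlr8 as well, and the difference of -0.21 ± 0.12 (SE) did not pass (adjusted p = 0.263).

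Tlr9, which senses unmethylated CpG DNA, had signals of 5.83, 6.20 and 6.06 in AKR F1 and 6.30, 6.37 and 6.11 in DBA F1 (1422083_at). Replicate 2 of AKR F1 lay above the lowest array of DBA F1, and the difference of -0.23 ± 0.12 (SE) did not pass (adjusted p = 0.227). Tlr13, a sensor of bacterial ribosomal RNA encoded on the X chromosome, had signals of 7.31, 7.35 and 7.70 against 7.16, 7.38 and 7.42 (1457753_at). Its crosses overlapped, with a difference of 0.13 ± 0.13 (SE; adjusted p = 0.502). The 95% intervals of Tlr8, Tlr9 and Tlr13 (-0.49 to 0.06, -0.50 to 0.04 and -0.15 to 0.42) exclude a 2-fold difference in either direction and leave room for smaller ones.

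**Figure D2:**
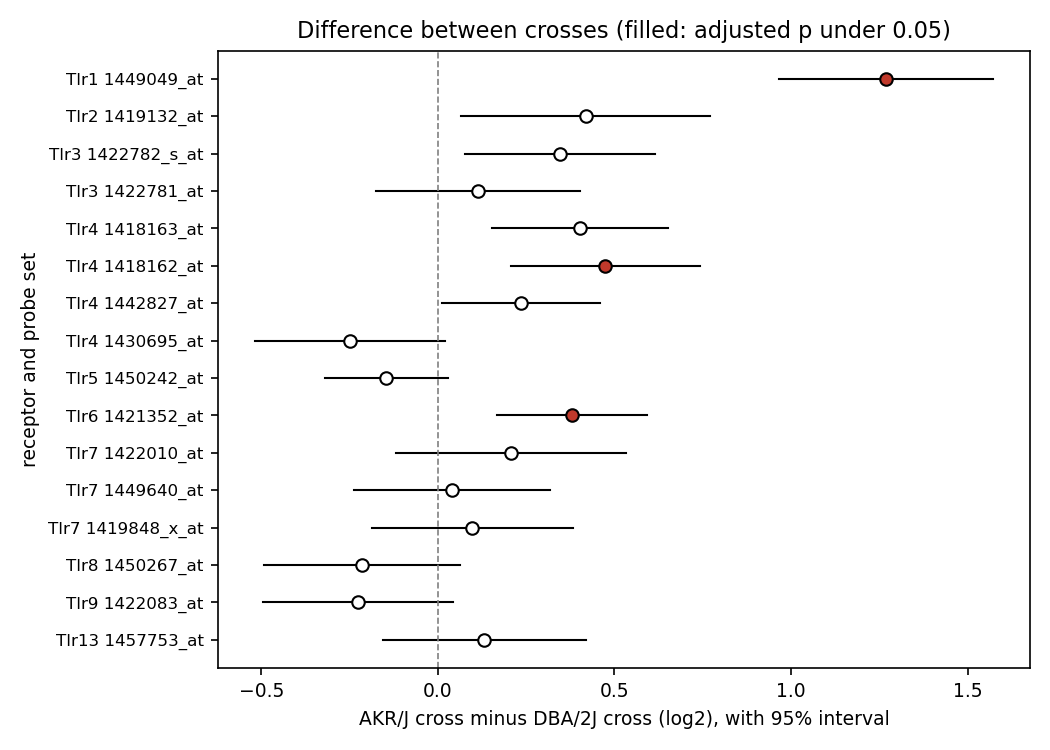
Difference between crosses on the log2 scale (x axis, AKR F1 minus DBA F1) for the 16 probe sets (y axis); lines are limma's 95% intervals and filled points passed an adjusted p of 0.05. Tlr1 stands at 1.27 and the other probe sets lie between -0.25 and 0.47.

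In all, 3 of the 16 probe sets were higher in AKR F1 and 0 in DBA F1, against 10.4% called among all probe sets. At an unadjusted p under 0.05 limma counted 7 of the 16, against 30.7% of all probe sets. The arrays did not overlap at 7 of the 16, 6 with AKR F1 above and 1 with DBA F1 above, against 36.1% of all probe sets (17.7% and 18.3%). With 1 probe set a receptor, 3 of 10 passed (Tlr1, Tlr4 and Tlr6), against 17.2% of all genes, and the median difference was 0.28, against -0.01 over all genes. The arrays did not overlap for 5 of 10 receptors, Tlr1, Tlr3, Tlr4 and Tlr6 with AKR F1 above and Tlr5 with DBA F1 above, against 41.2% of all genes (22.0% and 19.2%). Without replicate 1 of DBA F1 5 of 10 passed (Tlr2 and Tlr3 in addition), where 9.98% of all genes were called higher in AKR F1. Leaving out any other array left Tlr1 alone, where 1.85% to 3.19% of all genes were so called. Replicate 1 of DBA F1 was the highest array of its cross for 5 of the 10 receptors, namely Tlr1, Tlr2, Tlr3, Tlr4 and Tlr6, and for 40.9% of all genes.

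Whether receptors changed unequally was asked within arrays, by subtracting the signal of 1 receptor from that of another and comparing this between crosses over all 45 receptor pairs. The signal of Tlr1 minus that of Tlr6 was 1.83, 1.68 and 1.52 in AKR F1 and 0.94, 0.85 and 0.58 in DBA F1. Tlr1 minus Tlr2 was 1.46, 1.49 and 1.43 against 0.51, 0.73 and 0.58. For each of the 9 pairs that hold Tlr1 the 2 crosses did not overlap, and the margin of Tlr1 was 0.85 to 1.496 wider in AKR F1. All 9 use the same Tlr1 values, so they restate its difference between the crosses. Tlr2 minus Tlr6 was 0.37, 0.19 and 0.09 against 0.42, 0.12 and -0.01, and the crosses overlapped. Of the 36 pairs without Tlr1, 13 did not overlap, with differences between crosses from -0.53 to 0.65 over all 36. No share of non-overlapping pairs over all genes was computed to set beside these counts. The smallest two-sided p of an exact permutation test of 3 against 3 arrays is 0.1, and the smallest adjusted over the 45 pairs was 0.205, so no pair could be called.

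Probe sets of the same receptor were compared in that way too, over 10 pairs and again without a share over all genes. Of these 4 did not overlap, all of them of Tlr4, and the smallest adjusted p of the exact permutation test was 0.25. Of these 4 pairs, 3 hold 1430695_at, whose signals of 2.27 to 2.80 lie near the lowest value on the arrays (1.81), so distances from it carry little meaning. The remaining pair holds the 2 bright probe sets of Tlr4, at a distance of 0.95 ± 0.05 in AKR F1 and 1.02 ± 0.04 in DBA F1 (SD, n = 3 each). The crosses nearly touched there, at 0.886 to 0.983 in AKR F1 and 0.984 to 1.068 in DBA F1.

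Tlr1 and Tlr6 are neighbours in the GRCm38.p6 annotation, and the 5 nearest measured genes on either side of the pair were read as well. These were looked up after the receptor values were known. Of the 10, 2 were higher in AKR F1 and 0 in DBA F1, against 8.91% and 8.31% of all genes. Klhl5, a kelch family gene, stood at 8.72, 8.52 and 8.68 in AKR F1 and 8.32, 8.10 and 8.21 in DBA F1 (0.43 ± 0.09, SE; adjusted p = 0.0231). Tmem156, which encodes a transmembrane protein, stood at 7.50, 7.20 and 7.15 against 6.94, 6.65 and 6.67 (0.53 ± 0.12, SE; adjusted p = 0.0280). Both lie on the side of Tlr6, and neither set of arrays overlapped between crosses. Between them and Tlr6, Fam114a1 had a difference of 0.16 ± 0.09 (SE; adjusted p = 0.243). On the side of Tlr1 the nearest measured gene, the transcription factor Klf3, had a difference of 0.10 ± 0.13 (SE; adjusted p = 0.616). Tmem156 kept its call in 1 of 6 fits with 1 array left out (without replicate 1 of DBA F1, adjusted p = 0.0161) and Klhl5 in 2 (also without replicate 2 of AKR F1, adjusted p = 0.0411). Both were lost after quantile normalization. Around Tlr4, 0 of the 10 nearest measured genes were higher in AKR F1 and 1 in DBA F1, against the same 8.91% and 8.31%. That 1 was Pappa, which encodes a metalloproteinase (-0.45 ± 0.08, SE; adjusted p = 0.0151). Pappa was not called without replicates 1 or 3 of AKR F1 (adjusted p = 0.0525 and 0.0502) or with its probe sets averaged.

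**Figure D3:**
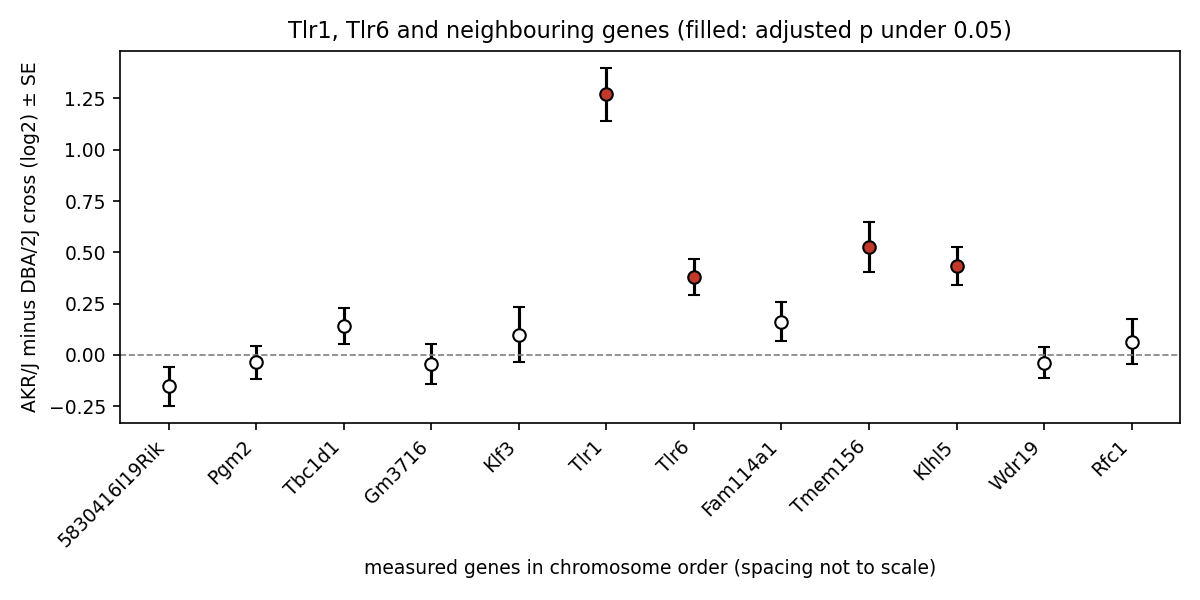
Difference between crosses (y axis, log2, ± SE) for Tlr1, Tlr6 and the 5 measured genes on either side, in chromosome order with equal spacing (x axis); filled points passed an adjusted p of 0.05. Tlr1 at 1.27 stands above Tlr6, Tmem156 and Klhl5 at 0.38 to 0.53, and the remaining genes lie between -0.15 and 0.16.

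Genes of the receptors' pathway were counted in 9 lists with 85 measured genes, of which 10 were higher in AKR F1, 2 higher in DBA F1 and 73 did not pass, against 17.2% of all genes called. The share called was thus near that of all genes. The counts of the single lists below stand beside 8.91% of all genes higher in AKR F1 and 8.31% higher in DBA F1. The median difference of the 85 was 0.17, against -0.01 over all genes, and it was 0.20 with arrays centred on their medians and 0.12 after quantile normalization. Without replicates 1, 2 and 3 of AKR F1 4, 5 and 4 genes were higher in AKR F1, and without those of DBA F1 19, 3 and 4. The shares of all genes so called in the same fits were 1.85%, 3.19% and 2.22%, and 9.98%, 2.20% and 2.94%. The further mouse receptor Tlr12, a sensor of the parasite protein profilin, stood at 5.88, 5.55 and 5.77 against 5.70, 5.63 and 5.36 (0.17 ± 0.12, SE; adjusted p = 0.335), and Tlr11 was not analysed here.

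Of 7 genes of co-receptors and ligand delivery, 1 was higher in AKR F1 and 0 in DBA F1. Lbp, the lipopolysaccharide-binding protein, stood at 7.11, 6.78 and 7.05 in AKR F1 and 6.21, 6.23 and 6.42 in DBA F1. The arrays did not overlap, and the difference of 0.69 ± 0.11 (SE; adjusted p = 0.0108) passed whichever array was left out. Ly96, the partner of Tlr4, stood at 6.95, 6.89 and 6.94 against 6.77, 6.34 and 6.52 and did not pass (0.38 ± 0.11, SE; adjusted p = 0.0508). Cd14, which hands lipopolysaccharide to Ly96 and Tlr4, varied widely within both crosses, at 7.44, 8.17 and 8.81 against 7.94, 8.40 and 9.15. Its signal rose from replicate 1 to replicate 3 in both crosses and was lower in AKR F1 at each replicate number. In limma without a replicate term Cd14 did not pass (adjusted p = 0.518). Ly96, Cd14, Unc93b1 and Myd88 are given for their roles, outside the rule for named genes and with their values known.

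Of 8 receptor chaperones and trafficking genes 2 were higher in AKR F1. All 8 differences were positive, as were 68 of the 85 over all pathway lists and 8860 of the 18193 over all genes. Cnpy4, a chaperone of surface receptors, differed by 0.44 ± 0.10 (SE; adjusted p = 0.0261) and Slc15a4, an endolysosomal transporter needed for signalling by Tlr7 and Tlr9, by 0.40 ± 0.11 (SE; adjusted p = 0.0458). Each kept its call in 2 of 6 fits with 1 array left out, those without replicate 3 of AKR F1 or replicate 1 of DBA F1. Unc93b1, which carries the nucleic acid sensors to endosomes, stood at 10.66, 10.64 and 10.71 against 10.52, 10.23 and 10.39 and did not pass (0.29 ± 0.09, SE; adjusted p = 0.0610). Of 5 proteases that cleave endosomal receptors 0 passed in limma, and 2 had an unadjusted p under 0.05, against 36.2% of all genes, namely Ctsl (0.30 ± 0.09, SE; adjusted p = 0.0610) and Ctsk (adjusted p = 0.101).

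Among 5 measured adaptors, 1 was higher in AKR F1. Pik3ap1 (BCAP), which links receptors to phosphoinositide 3-kinase, stood at 10.19, 10.12 and 10.19 against 9.89, 9.65 and 9.71 (0.42 ± 0.09, SE; adjusted p = 0.0219), and with 1 array left out it passed only without replicate 1 of DBA F1 (adjusted p = 0.00921). Myd88 stood at 8.45, 8.03 and 7.92 against 8.05, 7.77 and 7.71, with overlap (0.29 ± 0.15, SE; adjusted p = 0.202). Of 14 kinases and ubiquitin ligases, 2 were higher in AKR F1: Ikbke, an IKK-related kinase of the interferon branch (0.59 ± 0.11, SE; adjusted p = 0.0156), and Ikbkb, the catalytic kinase of NF-kB activation (0.49 ± 0.09, SE; adjusted p = 0.0147). Each of these kinases passed in 4 of 6 fits with 1 array left out. Ikbke did not pass without replicates 1 or 3 of AKR F1 (adjusted p = 0.0564 and 0.0530), and Ikbkb without replicate 3 of AKR F1 or replicate 2 of DBA F1 (0.0502 and 0.0539). Of 13 transcription factors, 1 was higher in AKR F1, the NF-kB subunit Rel (0.45 ± 0.10, SE; adjusted p = 0.0246), which passed in 2 such fits, without replicate 1 of either cross.

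Of 13 inhibitors, 2 were higher in AKR F1 and 0 in DBA F1. Irak3 (IRAK-M), which restrains signalling downstream of Myd88, stood at 7.52, 7.46 and 7.48 in AKR F1 and 7.01, 6.90 and 6.62 in DBA F1. The difference of 0.64 ± 0.11 (SE; adjusted p = 0.0122) passed whichever array was left out, with adjusted p-values up to 0.0496. Cyld, a deubiquitinase, differed by 0.26 ± 0.07 (SE; adjusted p = 0.0392), and with 1 array left out it passed only without replicate 1 of DBA F1 (adjusted p = 0.0423). Of 19 target cytokines and enzymes, 1 was higher in AKR F1 and 2 in DBA F1, and their median difference was 0.01. The chemokine Cxcl10 differed by 0.77 ± 0.17 (SE; adjusted p = 0.0260) and the cytokine Il1a by -0.55 ± 0.13 (SE; adjusted p = 0.0273), and each passed in 1 of 6 fits with 1 array left out, that without replicate 1 of DBA F1 (0.00305 and 0.00783). Ptgs2, a prostaglandin synthase, differed by -0.37 ± 0.11 (SE; adjusted p = 0.04995, just under the threshold) at signals of 2.89 to 3.55, and passed in none of the 6. Of the 12 called pathway genes, Cnpy4, Slc15a4, Rel, Cyld and Ptgs2 were lost after quantile normalization, and Slc15a4, Pik3ap1, Ikbkb, Cyld and Ptgs2 with probe sets averaged.

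**Figure D4:**
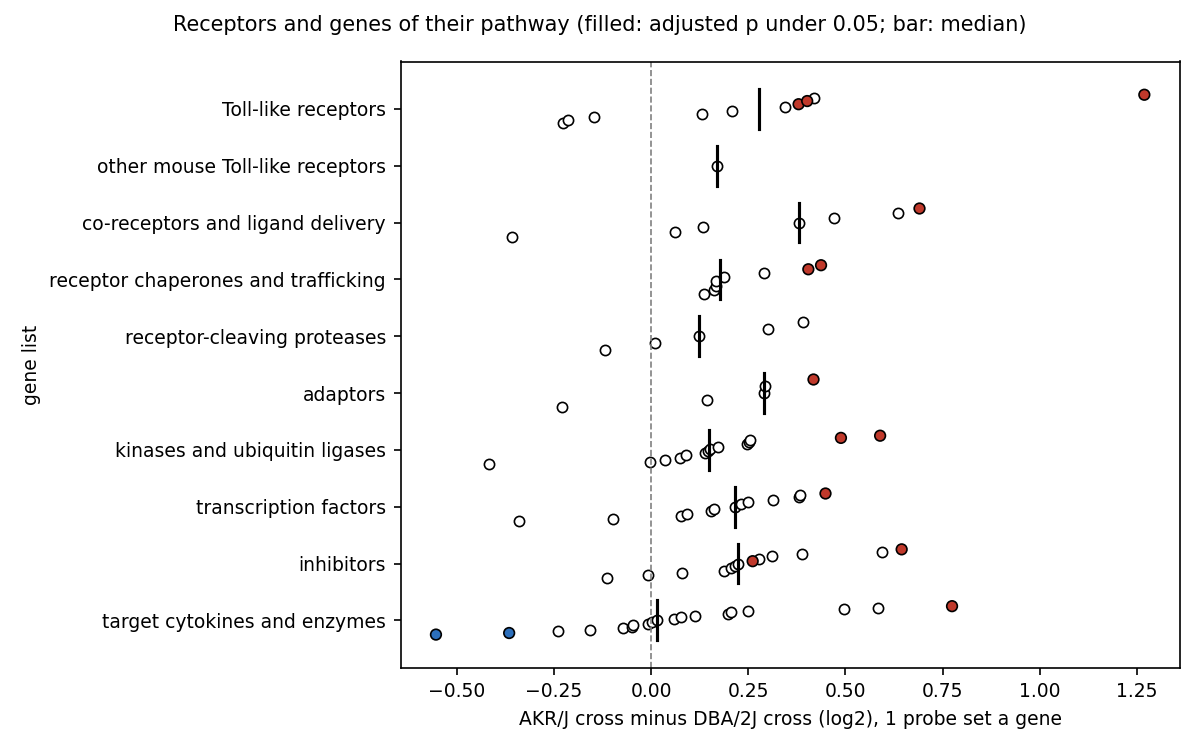
Difference between crosses (x axis, log2, 1 probe set a gene) for the 10 receptors and the genes of 9 pathway lists (y axis); each point is a gene, filled points passed an adjusted p of 0.05 (red higher in AKR F1, blue in DBA F1), bars are list medians, and the vertical scatter only separates points. Tlr1 at 1.27 lies beyond every pathway gene, of which the highest is Cxcl10 at 0.77.

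Marker genes were counted for cells known to carry these receptors and for other cells of the tissue, against 8.91% of all genes higher in AKR F1 and 8.31% higher in DBA F1. Mean levels of 8 B cell markers were 10.85 to 11.01 in AKR F1 and 10.54 to 10.84 in DBA F1, with 3 of 8 higher in AKR F1. For 12 macrophage markers they were 9.19 to 9.28 and 8.94 to 9.06 (3 of 12 higher in AKR F1), and for 7 conventional dendritic cell markers 6.46 to 6.52 and 6.12 to 6.37 (2 of 7). The 5 marginal zone B cell markers averaged 10.26 to 10.36 and 9.79 to 10.14 (3 of 5), and the 7 plasmacytoid dendritic cell markers 8.95 to 9.07 and 7.88 to 8.56 (3 of 7). The last list holds Klk1, a kallikrein that the pancreas also expresses, at 12.37, 12.43 and 12.61 in AKR F1 and 10.90, 11.75 and 6.55 in DBA F1. These values enter the means of that list and widen their gap, and the lowest mean, 7.88, is that of replicate 3 of DBA F1. Of the B cell, marginal zone B cell, macrophage and both dendritic cell lists, 0 genes were higher in DBA F1. Monocyte markers (6.80 to 7.11 and 6.77 to 6.91, 0 of 5 called) and neutrophil markers (7.96 to 8.60 and 7.88 to 9.29, 0 of 8 called) overlapped between crosses. T cell markers averaged 8.65 to 8.78 and 8.21 to 8.29, with 8 of 9 higher in AKR F1, while 9 of 9 erythroid and 8 of 8 cell cycle genes were higher in DBA F1. These counts moved with single arrays, and so did the calls over all genes. Without replicates 1, 2 and 3 of AKR F1, 1.85%, 3.19% and 2.22% of all genes were higher in AKR F1. Without those of DBA F1 it was 9.98%, 2.20% and 2.94%. Genes higher in DBA F1 numbered 313 to 1635 of all 18193 in these fits, against 1512 with every array. Without replicates 1, 2 and 3 of AKR F1, 0, 1 and 0 B cell markers and 0, 1 and 0 marginal zone B cell markers were higher in AKR F1. Without those of DBA F1 the counts were 6, 0 and 0 for B cell and 5, 0 and 0 for marginal zone B cell markers. The plasmacytoid dendritic cell count ranged from 1 to 3, the conventional dendritic cell count from 1 to 3 and the T cell count from 5 to 8, while 3 macrophage markers were called in each such fit. For genes higher in DBA F1 the erythroid count was 6 to 9. The cell cycle count was 2, 7 and 3 without replicates 1, 2 and 3 of AKR F1 and 8, 3 and 7 without those of DBA F1. The part of these cell types in the receptor differences was not tested. The mean over the 10 receptors was 6.82 to 6.89 in AKR F1 and 6.54 to 6.66 in DBA F1, with replicate 1 the highest of the latter. That same array had the highest level of its cross for B cell (10.84), marginal zone B cell (10.14) and neutrophil markers (9.29). It was also the highest for conventional (6.37) and plasmacytoid (8.56) dendritic cell markers. Its levels were the lowest of the cross for erythroid (8.92), cell cycle (8.31) and T cell markers (8.21). Those for macrophage (8.97), monocyte (6.89) and acinar markers (13.43) lay between the other arrays of DBA F1.

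**Figure D5:**
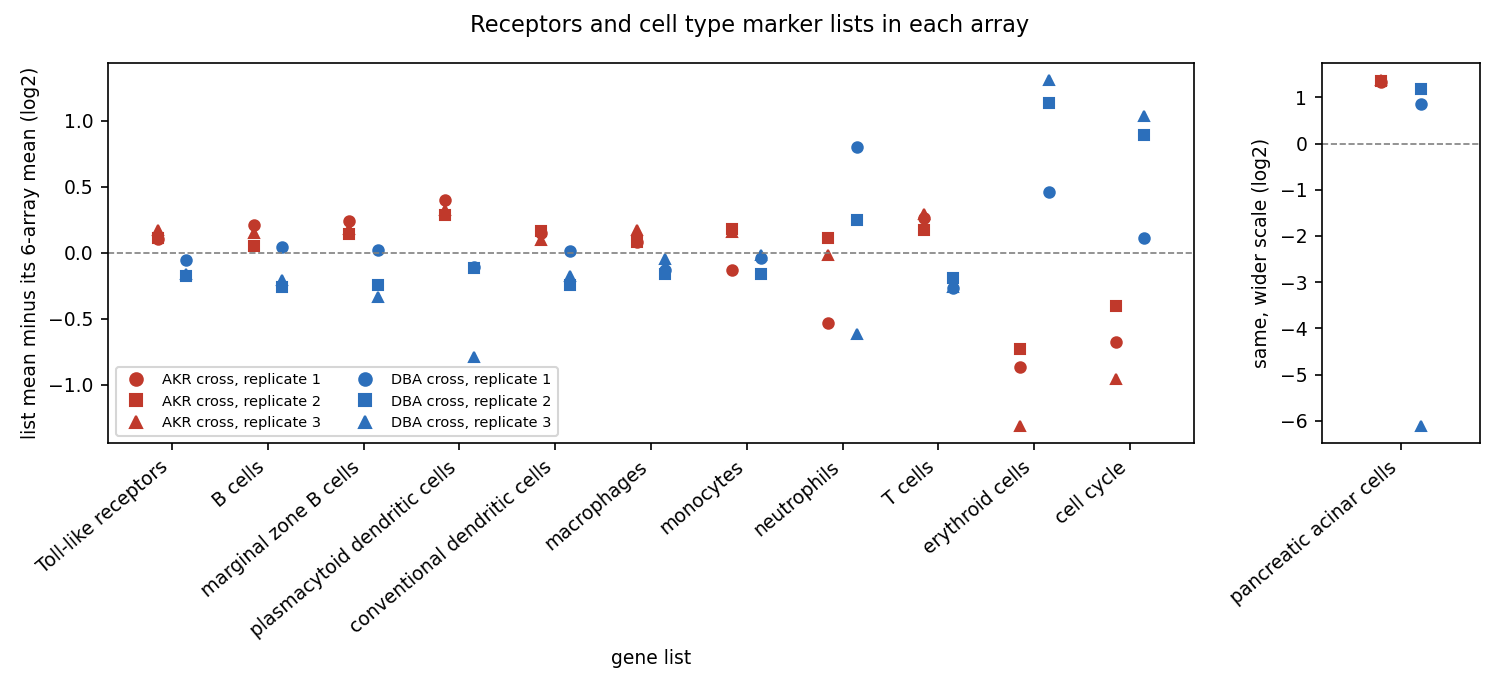
Mean log2 level of the 10 receptors and of each cell type marker list in each array, minus the mean of the 6 arrays (y axis; the right panel has a wider scale), by list (x axis); colours are the crosses and shapes the replicates. The receptors, B cell, macrophage, dendritic cell and T cell lists lie higher in all 3 arrays of AKR F1, the erythroid and cell cycle lists lie higher in those of DBA F1, and replicate 3 of DBA F1 stands far below the rest for acinar genes.

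Patterns most like those of the 3 receptors with the smallest p were sought by Pearson's r over the 6 arrays, among 19415 probe sets of other genes for Tlr1 and for Tlr6 and 19414 for Tlr4. These correlations follow the gap between the crosses and are given as a description. For Tlr1 they were Marcksl1, a MARCKS-like protein (r = 0.999), Gpr183, the oxysterol receptor EBI2 that positions B cells (r = 0.999), and the Wnt co-receptor Lrp6 (r = 0.998). For Tlr6 they were the ubiquitin ligase Nedd4l (r = 0.999), the signalling inhibitor Spred1 (r = 0.998) and Tmem51 (r = 0.998). For 1418162_at of Tlr4 they were the small GTPase Rab37 (r = 0.998), the calponin Cnn3 (r = 0.997) and the transcription factor Eomes (r = 0.997). A high r says nothing of size. Lrp6 (0.22), Tmem51 (0.33) and Cnn3 (0.23) did not pass in limma (adjusted p = 0.0919, 0.0538 and 0.115). The other genes passed, with differences of 0.37 to 0.71, against 1.27 for Tlr1. An r above 0.95 was reached by 1037 probe sets for Tlr1, 699 for Tlr6 and 375 for Tlr4, so a high r over 6 arrays is common here.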

How the data were processed

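Gene expression was measured in 6 spleen samples, 3 per cross, each on its own Affymetrix array. The deposited values were taken as log2 probe set signals on a common scale, as read from the values themselves (array medians of 5.04 to 5.10). RMA and MAS5 are the tools that the submitters' processing notes list, without their roles. No genome build is named in the sources. Groups and replicate numbers come from the sample titles. These titles name no separate animals, so p-values measure only the spread between these samples.

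Of 45101 probe sets, 64 controls were left out. Platform annotation gave 1 symbol to 34945 of the rest, several to 932 and none to 9160. limma 3.58.1 (R 4.3.3; lmFit, eBayes, no covariate) was fitted to all 45037, and to 18193 genes by their brightest probe set, with Benjamini-Hochberg adjustment over the whole table at 0.05. Each fit has 4 residual degrees of freedom. The procedure was tested on simulated data. The number of arrays limits the precision. Exact permutation tests over 3 against 3 arrays cannot go below p = 0.1.

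The members and lists were chosen with earlier results of these data known, and no set test was run. All member probe sets are named; in each pathway list up to 4 called genes are named by adjusted p, or the gene of smallest p where none was called. The receptor pairs and neighbouring genes were chosen after values were seen. Alternatives were median centring, quantile normalization, removal of dim probe sets (mean signal under the 40th percentile), a trended robust variance, array weights, a replicate block, omission of each array in turn and averaging the probe sets of each gene.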

Additional observations from a re-analysis of the deposited data

How the results depend on the processing

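Tlr1 kept its direction and its call in all 12 alternatives, with differences of 1.17 to 1.40. The number of receptor probe sets higher in AKR F1 was 3 as reported, 1 after quantile normalization, 6 with array weights and 1 to 6 with 1 array left out. With 1 probe set a receptor it was 3, and 1, 5 and 1 to 5 under these settings, and 2 with averaged probe sets, where Tlr4 was lost. The number of pathway genes higher in AKR F1 was 10, and 6, 21 and 3 to 19, and 7 with averaged probe sets. The share of all genes higher in AKR F1 moved with these settings, from 8.91% to 4.21% after quantile normalization, 12.7% with array weights, 6.85% with averaged probe sets and 1.85% to 9.98% with 1 array left out. Of pathway genes, 2 were higher in DBA F1, and 1 with arrays centred on their medians, after quantile normalization, with dim probe sets left out or with averaged probe sets of each gene, and 0 to 2 with 1 array left out. The sample titles do not say whether arrays of the same replicate number belong together, and the main fit has no replicate term. The deviations of same-numbered arrays correlated at 0.20, 0.11 and 0.05, and those of differently numbered arrays at -0.16 to 0.06. Replicate 3 of DBA F1 correlated best with replicate 2 of AKR F1 (0.06). An effect shared by arrays of the same number was not tested. With the replicate block 5 receptor probe sets were higher in AKR F1, the 3 reported and those of Tlr2 (adjusted p = 0.0429) and Tlr4 (1418163_at, adjusted p = 0.0366), while the pathway genes Cyld and Ptgs2 were lost. Signs turned only at differences that never passed, with 1 array left out. With 1 array left out, 1422781_at of Tlr3 ranged from -0.00765 to 0.20, 1449640_at of Tlr7 from -0.0377 to 0.17 and 1419848_x_at of Tlr7 from -0.0252 to 0.18. Among probe set pairs of Tlr7, 1422010_at minus 1419848_x_at ranged from -0.0185 to 0.18 and 1449640_at minus 1419848_x_at from -0.193 to 0.0346. The causes were not tested. The pseudocount alternative, meant for linear values, was not run. With 3 arrays a cross, the call of Tlr2 moved with a single array. Its difference was 0.42 with all arrays and 0.33 to 0.60 with 1 array left out.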
